A study of Mus musculus with 4 samples.

Results

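The Chmp genes encode the charged multivesicular body proteins, the subunits of ESCRT-III. The 10 genes Chmp1a, Chmp1b, Chmp2a, Chmp2b, Chmp3, Chmp4b, Chmp4c, Chmp5, Chmp6 and Chmp7 were found by symbol among the 22422 genes of a sequenced colon transcriptome. They were chosen by family name with their normalised reads in each library, and hence the difference between the genotypes, already known. That difference is therefore given as a description, with no p-value printed for any of the 10. Calls at a threshold are counted below to show how they depend on the processing, and nothing is read from them. All 10 passed the filter on low values (a mean of at least 1 normalised read).

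RNA came from the distal colon of female mice aged 6 weeks that had received 2% dextran sulfate sodium (DSS), a polysaccharide that injures the colonic epithelium, for 5 days. One group of 2 libraries was wild type, strain C57BL/6. The other group of 2 libraries was Elf4fl/fl-Villin-Cre: its loxP-flanked Elf4 gene, which encodes an ETS family transcription factor, is deleted by a Cre recombinase made under the villin promoter, in intestinal epithelium. The strain label of this second group reads C57BL/8, while the series text gives C57BL/6 for both. The labels say neither which alleles the wild-type mice carried nor whether the 2 libraries of a group came from separate animals, so a p-value measures the spread between these libraries, which may be technical. Colon without DSS was not analysed here.

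ESCRT-III subunits polymerise into filaments on the inner face of a membrane neck and, with the ATPase VPS4, pinch it off. The machinery sorts ubiquitinated receptors into multivesicular bodies on their way to the lysosome, severs the bridge between dividing cells, reseals the nuclear envelope and repairs torn plasma membrane. ESCRT-0, ESCRT-I and ESCRT-II act before it in receptor sorting. Repair by ESCRT-III is also known to limit the damage done by the pore-forming death proteins MLKL and gasdermin D.

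In whole DSS-treated colon all 10 Chmp genes had lower means in the Elf4fl/fl-Villin-Cre group on the deposited scale, by 1.13-fold for Chmp7 to 2.82-fold for Chmp4c. With library totals in place of the deposited scaling, 9 of the 10 were lower and Chmp7 was slightly higher. The main filament gene Chmp4b, its relative Chmp4c and the late-acting Chmp1a had the largest differences on both scales, together with Chmp6. RNA was taken from whole tissue, so fewer cells of a type and less RNA per cell cannot be told apart.

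The libraries held 15885028 to 16425954 reads each, and 1 read was worth 1.03 and 1.05 normalised reads in wild-type colon but 0.814 and 0.836 in colon of Elf4fl/fl-Villin-Cre mice. Exchanging this scaling for library totals moved the median log2 difference over all 22050 tested genes from 0.11 to 0.40. Over the 6115 genes with a mean of at least 500 normalised reads, a level that every Chmp gene reached, the median moved from -0.13 to 0.18. Elf4 itself had 1588 and 1938 normalised reads in wild-type colon and 897 and 758 in colon of Elf4fl/fl-Villin-Cre mice, lower in both of the libraries labelled as deleted. A gene-level count does not show whether reads came from the deleted exons.

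Chmp4b and Chmp4c encode the subunits that build the filament. Chmp4b (ENSMUSG00000038467.15, mm10 chromosome 2, 154651705 to 154694785) had 7607 and 7325 normalised reads in wild-type colon. Its Elf4fl/fl-Villin-Cre values were 3977 and 4551. The groups lay well apart, with the lower wild-type library still far above the higher Elf4fl/fl-Villin-Cre one. Group means of 7466 ± 199 and 4264 ± 406 (SD, n = 2 each) gave a log2 difference of -0.81 ± 0.15 (SE from limma on log2(value + 1), used for every log2 difference on this scale). Chmp4c (ENSMUSG00000027536.6, chromosome 3, 10366907 to 10428856), known for delaying the final cut between daughter cells when chromatin is trapped in the bridge, had 1760 and 2572 normalised reads in wild-type colon. Its values were 640 and 896 in colon of Elf4fl/fl-Villin-Cre mice. Both groups were wide, 37.5% apart within wild type and 33.3% apart within Elf4fl/fl-Villin-Cre, yet they did not overlap. The means of 2166 ± 574 and 768 ± 181 (SD, n = 2 each) gave a log2 difference of -1.49 ± 0.24. Leaving out each library in turn moved this value between -1.76 and -1.22.

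Chmp1a and Chmp1b act late and recruit partners, the microtubule-severing enzyme spastin among them. Chmp1a (ENSMUSG00000000743.9, chromosome 8, 123204264 to 123212763) had 3894 and 3867 normalised reads in wild-type colon, the closest pair of replicates in the family. It had 1823 and 2212 in colon of Elf4fl/fl-Villin-Cre mice. This difference was several times the spread within either group, at -0.95 ± 0.15 on the log2 scale and 1.92-fold between means. Chmp1b (ENSMUSG00000109901.1, chromosome 18, 67205366 to 67207889), a gene of 1 exon that the annotation tags as a retrogene, had 3105 and 3598 normalised reads in wild-type colon. Its Elf4fl/fl-Villin-Cre values were 2089 and 2379. These groups too did not overlap, at a smaller log2 difference of -0.58 ± 0.15.

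Chmp2a, Chmp2b and Chmp3 encode the subunits that join a CHMP4 filament and bring VPS4 to it. Chmp2a (ENSMUSG00000033916.5, chromosome 7, 13032010 to 13034807) had 3112 and 2842 normalised reads in wild-type colon and 1895 and 2081 in colon of Elf4fl/fl-Villin-Cre mice. Chmp2b (ENSMUSG00000004843.6, chromosome 16, 65539128 to 65562726), in which mutations are known from a familial frontotemporal dementia, had 2637 and 3268 against 1580 and 1938. Chmp3 (ENSMUSG00000053119.11, chromosome 6, 71543797 to 71582609) had 3325 and 3596 against 2051 and 2478. In each of the 3 genes both Elf4fl/fl-Villin-Cre libraries lay below both wild-type ones. The log2 differences were -0.58 ± 0.13 for Chmp2a, -0.75 ± 0.17 for Chmp2b and -0.62 ± 0.15 for Chmp3.

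The other 3 genes link ESCRT-III to its regulators. Chmp6 (ENSMUSG00000025371.12, chromosome 11, 119913441 to 119919548), whose product connects ESCRT-II to CHMP4, had 851 and 948 normalised reads in wild-type colon and 427 and 610 in colon of Elf4fl/fl-Villin-Cre mice. Its log2 difference was -0.82 ± 0.20, and the Elf4fl/fl-Villin-Cre libraries were 35.3% apart. Chmp5 (ENSMUSG00000028419.5, chromosome 4, 40948407 to 40965303), whose product binds the VPS4 cofactor LIP5, had 2094 and 2311 against 1513 and 1584, a log2 difference of -0.51 ± 0.13. The groups of both genes stood apart. Chmp7 (ENSMUSG00000034190.9, chromosome 14, 69717000 to 69732541), which starts ESCRT-III assembly at the nuclear envelope together with LEM2, had the smallest difference of the family. It counted 801 and 730 normalised reads in wild-type colon and 652 and 703 in colon of Elf4fl/fl-Villin-Cre mice. Here the groups came close without overlapping, and the log2 difference of -0.18 ± 0.13 stood beside a median of -0.13 over all genes with a mean of at least 500.

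**Figure D1:**
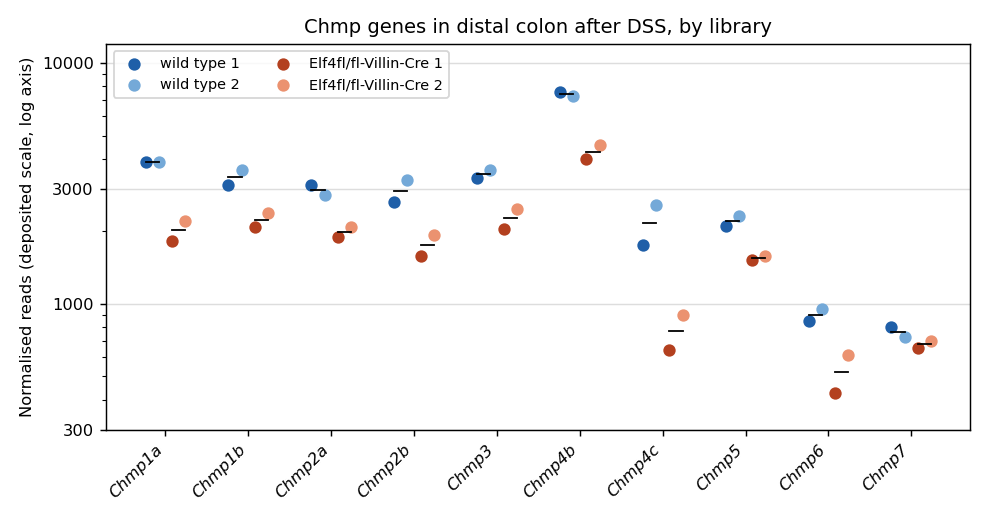
Normalised reads of the 10 Chmp genes (log axis, deposited scale) in the 2 wild-type (blue) and 2 Elf4fl/fl-Villin-Cre (red) libraries, with a bar at each group's mean. On this scale both red points lie below both blue points in every gene, a pattern seen in 27.2% of all tested genes. The gap is wide in Chmp4c (640 and 896 against 1760 and 2572) and narrow in Chmp7, which turns higher under library totals.

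Elf4fl/fl-Villin-Cre replicate 1 was below replicate 2 in all 10 genes on the deposited scale and in 9 of 10 in CPM (read counts scaled by the library total). Wild-type replicate 1 was below replicate 2 in 6 of 10. Reads behind single values ran from 524 for Chmp6 to 7394 for Chmp4b, so the counting error alone was at most 4.37% of a value. Counting error was thus below the differences between replicates in most genes, which reached 37.5%.

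Of the 10 genes, limma with Benjamini-Hochberg adjustment over all tested genes called 9 lower (adjusted p under 0.05) and 0 higher, the exception being Chmp7. Because the genes were chosen with this contrast known, nothing is read from the count. Of all tested genes 8.60% were called lower, and of genes with a mean of at least 500 normalised reads 21.6%. The groups did not overlap, with Elf4fl/fl-Villin-Cre lower, in 10 of 10 Chmp genes and in 27.2% of all genes. The edgeR quasi-likelihood test on the whole reads behind the values called the same 9 lower and 0 higher, beside 13.5% of all genes called lower. With no adjustment for multiple tests, limma and edgeR each had 9 lower and 0 higher at p under 0.05. The share of all genes at that threshold was not counted. With 1 library left out, fewer Chmp genes were called, as given in the closing section beside counts for the whole table. In such limma fits the log2 difference ran from -1.09 to -0.81 for Chmp1a and from -0.24 to -0.11 for Chmp7.

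The same genes in CPM gave smaller differences. Chmp4c had 106 and 154 CPM in wild-type colon and 49.1 and 65.3 in colon of Elf4fl/fl-Villin-Cre mice, a log2 difference of -1.17 ± 0.23. For Chmp1a the values were 235 and 231 against 140 and 161, a difference of -0.63 ± 0.13, and for Chmp4b 458 and 438 against 305 and 331, a difference of -0.49 ± 0.13. These 3 genes were the ones that limma called lower under library totals, where 5.34% of all tested genes and 13.0% of genes with a mean of at least 500 were called lower. Chmp7 turned round, from 48.3 and 43.6 in wild-type colon to 49.99 and 51.2 in colon of Elf4fl/fl-Villin-Cre mice, a difference of 0.14 ± 0.13. The other 6 genes lay between -0.50 for Chmp6 and -0.19 for Chmp5. Their groups did not overlap, and over the family 9 of 10 genes had non-overlapping groups with Elf4fl/fl-Villin-Cre lower, a pattern seen in 15.8% of all genes.

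The median log2 difference of the 10 genes was -0.68 on the deposited scale and -0.37 under library totals. Minus the median of genes with a mean of at least 500 normalised reads, it was -0.55 on either scale. Summed over the family, Chmp reads came to 1758 and 1856 CPM in wild-type colon and 1276 and 1415 CPM in colon of Elf4fl/fl-Villin-Cre mice. This sum was lower with either scaling, while the number of single genes called depends on it.

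**Figure D2:**
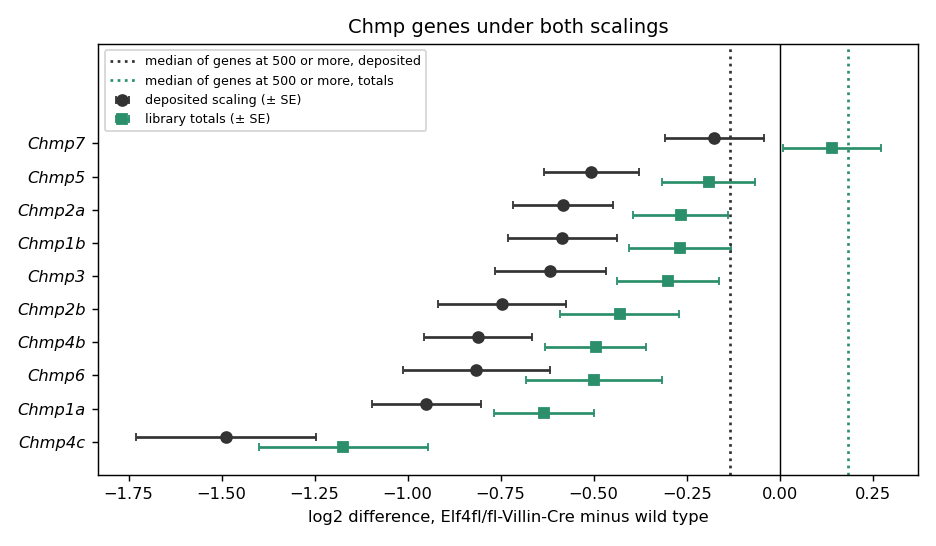
Log2 difference of each Chmp gene (Elf4fl/fl-Villin-Cre minus wild type, ± SE, 2 libraries a group) on the deposited scale (circles) and under library totals (squares), with dotted lines at the medians of the 6115 genes with a mean of at least 500 (-0.13 and 0.18). Chmp4c lies farthest left on both scales, and Chmp7 lies beside the median of each scale and changes sign between them.

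Shares within a library do not depend on its scaling, so the makeup of the family could be compared directly. Chmp4c made up 6.03% and 8.28% of all Chmp reads in wild-type colon and 3.85% and 4.61% in colon of Elf4fl/fl-Villin-Cre mice. Chmp1a went from 13.3% and 12.5% to 10.9% and 11.4%. These 2 genes had lower shares, and their groups did not overlap. Chmp7 went the other way, from 2.75% and 2.35% to 3.92% and 3.62%, as did Chmp5, from 7.17% and 7.44% to 9.09% and 8.15%. Chmp1b, Chmp2a and Chmp3 also had non-overlapping higher shares, by 1.05 to 1.28 percentage points, and Chmp2b, Chmp4b and Chmp6 overlapped between the groups. Shares of a library add up to the whole, so lower shares of some genes raise those of others. Chmp5, Chmp1b, Chmp2a and Chmp3 themselves were lower in the Elf4fl/fl-Villin-Cre group on both scales. No test was run on the shares, and how often shares fail to overlap in other sets of genes was not counted. With 2 libraries a group, non-overlap alone is common. For levels it was seen, with Elf4fl/fl-Villin-Cre lower, in 27.2% of all genes on the deposited scale and 15.8% under library totals.

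Ratios of paralogs compare the members of a pair within a library. The ratio of Chmp4c to Chmp4b reads was 0.231 and 0.351 in wild-type colon and 0.161 and 0.197 in colon of Elf4fl/fl-Villin-Cre mice, so Chmp4c was lower relative to Chmp4b in both. Chmp1a to Chmp1b went from 1.25 and 1.07 to 0.873 and 0.930, which put Chmp1a above Chmp1b in both wild-type libraries and below it in both Elf4fl/fl-Villin-Cre ones. For Chmp2a to Chmp2b the wild-type values of 1.18 and 0.870 enclosed 1 of the Elf4fl/fl-Villin-Cre values, 1.20 and 1.07, and the groups overlapped. Chmp7 to Chmp4b went from 0.105 and 0.0997 to 0.164 and 0.155, higher in both Elf4fl/fl-Villin-Cre libraries. With 2 libraries against 2 the smallest p a two-sided exact permutation test of such a ratio can give is 0.333, and none was run.

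**Figure D3:**
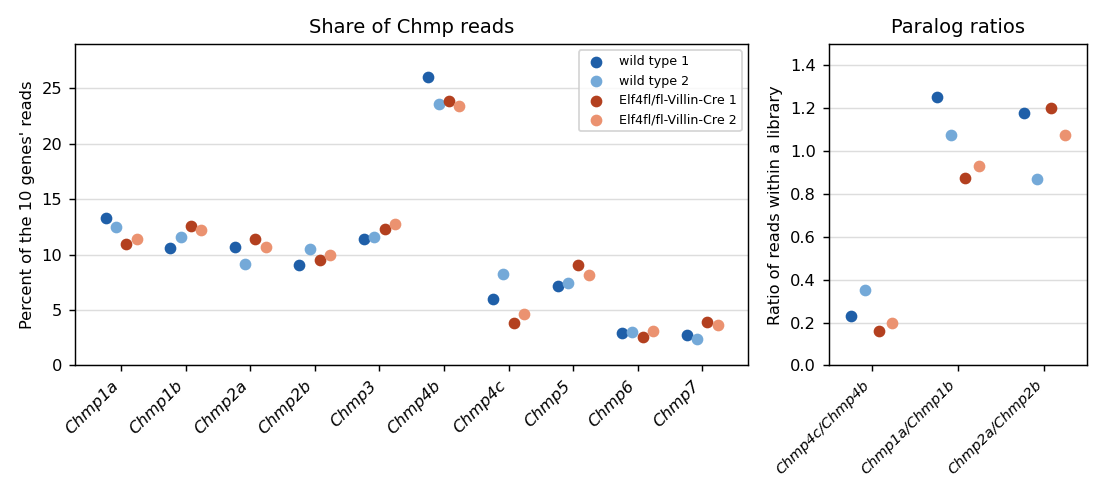
Percentage of all Chmp reads taken by each gene (left) and ratio of reads within paralog pairs (right) in each library, with wild type in blue and Elf4fl/fl-Villin-Cre in red. Chmp4c and Chmp1a take smaller shares in both red libraries. Chmp7 and Chmp5 take larger ones, although Chmp5 itself was lower on both scales. The Chmp1a to Chmp1b ratio lies above 1 in wild-type colon (1.25 and 1.07). It lies below 1 in colon of Elf4fl/fl-Villin-Cre mice (0.873 and 0.930).

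Levels can be set against each other only per length, here as normalised reads per kilobase of the principal GENCODE transcript. In wild type Chmp4b led with a mean of 4620 per kilobase, then Chmp2a with 3137 and Chmp1a with 1813. Chmp2b, Chmp5, Chmp1b and Chmp3 followed at 1577, 1450, 1328 and 1304, and each of these overlapped its neighbour between replicates. Chmp6 stood at 578, Chmp4c at 350 and Chmp7 at 289, the last 2 overlapping. In the Elf4fl/fl-Villin-Cre group Chmp4b (2639 per kilobase) and Chmp2a (2095) again led, and the next 5 genes, from Chmp5 at 1019 to Chmp3 at 853, overlapped as neighbours. Chmp7 (256 per kilobase) there lay above Chmp4c (124) without overlap. These levels depend on the length used. All annotated exons together span 10087 bases in Chmp4c against 6188 in its principal transcript. The same lengths are 6302 against 2649 in Chmp7 and 3272 against 2140 in Chmp1a. The order above, with the place of Chmp1a in wild type, is that of principal transcripts only. A ranking by all exons was not made.

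Other annotated sequences resemble or overlap some of the genes, and how reads between them were assigned is not given in the sources used here. Processed pseudogenes at least 90% identical over at least 100 bases were found for Chmp1a, Chmp2a and Chmp3. The Chmp1a copy, Gm8515, had 6.52 to 15.8 normalised reads a library, far below Chmp1a. Snx16 overlaps 330 exon bases of Chmp4c on the opposite strand and had 92.0 to 138 normalised reads. Chmp1b shares 605 exon bases, and Chmp3 96, with an antisense gene. Whether the counting used strand is not given in the sources used here.

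The promoter windows were searched for letters known from ETS family binding sites, since Elf4 encodes an ETS factor. ETS factors bind a GGAA core, and sites with that core but other flanking bases were not searched. RefSeq windows of GRCm38.p6, from 250 bases before to 50 after a transcript start, were at hand for 6 of the genes (7 windows: Chmp1a, Chmp2a, Chmp2b, Chmp4b, Chmp5 and both starts of Chmp3). The letters CCGGAAG, searched on both strands, occurred in 3 of the 7 windows and in 8.86% of all 32841 windows. The longer CCGGAAGT, which contains them, occurred in 0 of the 7 and in 3.89% of all. The 4 matches to CCGGAAG are shown because they are all that this search found in the 7 windows, each 5′ to 3′ on the gene's strand with the match in capitals. Positions count from the RefSeq start, which lies inside the GENCODE gene given above for Chmp5 and just outside it for Chmp1a:

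Chmp1a, chr8:123212755-123212781, minus strand, match from base 18 after the start: ggccgcgcgaCCGGAAGcggtggcgac

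Chmp1a, chr8:123212739-123212763, minus strand, match from base 36 after the start: ggtggcgaccCCGGAAGccctcgcg

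Chmp3, chr6:71544376-71544402, plus strand, match from base 34 after its second start: ttgccctagaCCGGAAGgttgtgtgcg

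Chmp5, chr4:40948437-40948463, plus strand, match from base -106 before the start: cgctccttctCCGGAAGgaggagctga

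The windows of Chmp1a held 2 matches, those of Chmp3 and Chmp5 held 1 each, and those of Chmp2a, Chmp2b and Chmp4b held 0. The Chmp4b window (chr2:154656776-154657075) lay wholly inside the GENCODE gene, which starts at 154651705. The bases around that GENCODE start were not searched. A match is a run of letters and not a bound site. The E-box letters CACGTG and TCACGTGA, the first within the second, and the TATA letters TATAAA occurred in 0 of the 7 windows, against 7.15%, 0.974% and 13.6% of all windows. G and C made up 49.7% to 71.7% of the 7 windows, against a median of 52.7% over all windows.

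The other ESCRT genes, listed from textbook roles, had differences of both signs, and their calls depended on the scaling. Of 32 measured (Vps28 was not analysed here), limma called 8 lower and 0 higher on the deposited scale (unadjusted p under 0.05: 15 lower, 2 higher), and 0 lower and 4 higher under library totals (unadjusted p under 0.05: 4 lower, 7 higher). Of all genes 8.60% were called lower and 6.86% higher on the deposited scale, and 5.34% lower and 18.5% higher under library totals. Among genes with a mean of at least 500, 21.6% were called lower on the deposited scale. The median log2 difference of the 32 was -0.32 on the deposited scale and 0.00 under library totals, against 0.11 and 0.40 for all genes. The edgeR test called 10 lower and 0 higher (unadjusted p under 0.05: 16 lower, 1 higher), beside 13.5% of all genes called lower. With library totals it called 0 lower and 5 higher (unadjusted p under 0.05: 4 lower, 6 higher), where 27.2% of all genes were called higher. The share of all genes with unadjusted p under 0.05 was not counted, so nothing is read from the unadjusted counts.

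ESCRT-0, which binds ubiquitinated cargo, had 1 of 3 genes called lower by limma on the deposited scale. On that scale edgeR called 2, Hgs and Stam2, the second at -0.56 ± 0.15 in limma (limma adjusted p = 0.0536, edgeR adjusted p = 0.0410). Under library totals limma and edgeR called 0. Hgs had 1337 and 1430 normalised reads in wild-type colon and 922 and 890 in colon of Elf4fl/fl-Villin-Cre mice, a log2 difference of -0.61 ± 0.12 (limma adjusted p = 0.0273). Of 8 ESCRT-I genes, 3 were called lower: Vps37c at -0.73 ± 0.15, Mvb12a at -0.66 ± 0.14 and Ubap1 at -0.53 ± 0.13 (limma adjusted p = 0.0262, 0.0313 and 0.0420). These encode accessory subunits. The other 5 were not called, among them the accessory Vps37a at 0.33 ± 0.15, Vps37b at -0.21 ± 0.13, Vps37d at 0.67 ± 0.38 and Mvb12b at 0.29 ± 0.16 (limma adjusted p = 0.186, 0.300, 0.283 and 0.276). Tsg101, the ubiquitin-binding subunit gene, differed by -0.34 ± 0.14 and was not called (limma adjusted p = 0.153). Under library totals the ESCRT-I genes called were Vps37a and Mvb12b, both higher, at 0.64 and 0.61 (limma adjusted p = 0.0287 and 0.0484).

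ESCRT-II had 0 of 3 genes called by limma or by edgeR on the deposited scale or with TMM scaling, and 0 with unadjusted p under 0.05 in either; with library totals edgeR called Vps36 higher. The smallest p were those of Snf8, at 874 and 863 normalised reads in wild-type colon and 657 and 763 in colon of Elf4fl/fl-Villin-Cre mice (limma adjusted p = 0.205), and of Vps25, at 19.5 and 16.9 against 13.0 and 8.36 (limma adjusted p = 0.305). Snf8 turned from -0.29 to 0.02 under library totals.

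Among 8 adaptors that bring ESCRT-III to a membrane, 2 were called lower on the deposited scale. Pdcd6ip, which encodes ALIX, the bridge to CHMP4 proteins, had 3944 and 5062 normalised reads in wild-type colon and 2575 and 2872 in colon of Elf4fl/fl-Villin-Cre mice, a log2 difference of -0.72 ± 0.17 (limma adjusted p = 0.0400). Cc2d1a, whose product binds CHMP4 proteins, differed by -0.54 ± 0.13 (limma adjusted p = 0.0463). Under library totals neither was called, and Ptpn23 and Lemd2 were higher, at 0.72 and 0.63 (limma adjusted p = 0.0161 and 0.0222). Lemd2 encodes LEM2, the partner of CHMP7, and on the deposited scale it stood at 0.31 ± 0.13 (limma adjusted p = 0.153).

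Among 10 genes of VPS4 and of proteins that bind ESCRT-III through an MIT domain or its like, Mitd1, which acts in cell division, and the deubiquitinase gene Stambpl1 were called lower on the deposited scale. Mitd1 had 519 and 531 normalised reads in wild-type colon against 325 and 299 (log2 difference -0.75 ± 0.14, limma adjusted p = 0.0220), and Stambpl1 differed by -0.64 ± 0.16 (limma adjusted p = 0.0447). Limma called neither ATPase gene: Vps4a differed by -0.32 ± 0.13 and Vps4b by -0.51 ± 0.18 (limma adjusted p = 0.161 and 0.112). Ist1, an ESCRT-III-like gene without a Chmp name, differed by -0.41 ± 0.14 (limma adjusted p = 0.113). Vta1 differed by -0.52 ± 0.15 and was not called (limma adjusted p = 0.0652). With TMM scaling edgeR called Vta1 lower (edgeR adjusted p = 0.0408), as did DESeq2 and limma with median scaling or a replicate block. Vps4b was called lower by DESeq2, by limma with a replicate block and by edgeR without wild-type replicate 1, and Ist1 by DESeq2. Under library totals 0 of the 10 were called in either direction by limma or edgeR, with 0 higher and 1 lower in either at unadjusted p under 0.05.

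**Figure D4:**
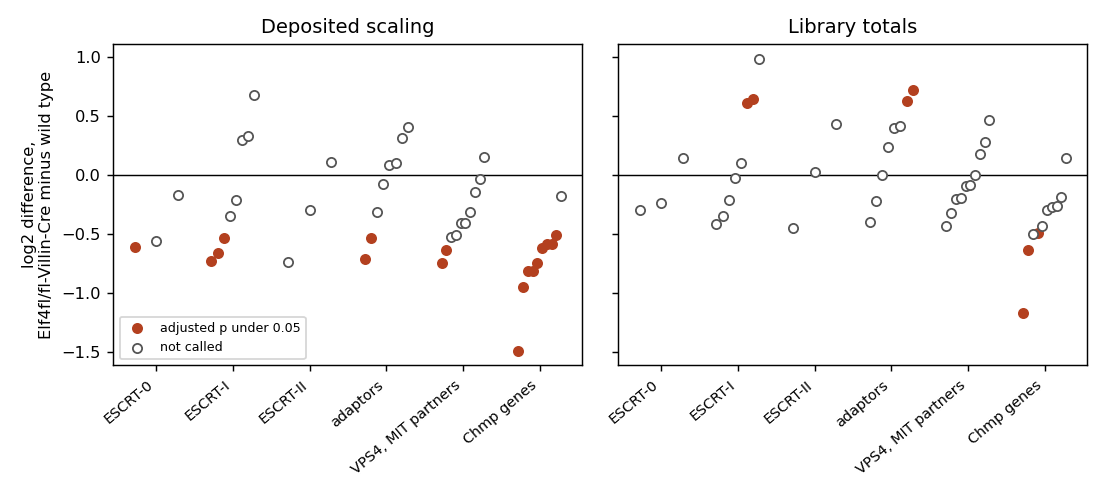
Log2 differences (Elf4fl/fl-Villin-Cre minus wild type) of the other ESCRT genes by step and of the 10 Chmp genes, on the deposited scale (left) and under library totals (right), with filled points for limma adjusted p under 0.05. On the left, filled points lie below 0 only (8 of 32 other ESCRT genes and 9 Chmp genes). There 8.60% of all genes were called lower, and 21.6% of those with a mean of at least 500. On the right, 4 of the 32 are filled above 0 and 3 Chmp genes below 0, beside 18.5% of all genes called higher and 5.34% lower.

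Of 4 genes of pore formation and membrane rupture, Gsdmd and Mlkl fell and Ninj1 rose. Gsdmd, the pore former of pyroptosis, had 9998 and 9789 normalised reads in wild-type colon and 5259 and 6001 in colon of Elf4fl/fl-Villin-Cre mice (log2 difference -0.82 ± 0.15, limma adjusted p = 0.0216). Mlkl, the pore former of necroptosis, had 1289 and 1130 against 691 and 522 (-1.01 ± 0.18, limma adjusted p = 0.0194). Ninj1, which ruptures the plasma membrane of dying cells, rose from 468 and 392 to 1078 and 767 (log2 difference 1.08 ± 0.20, limma adjusted p = 0.0223). These 3 calls held under library totals, where the log2 differences of Gsdmd, Mlkl and Ninj1 were -0.50, -0.69 and 1.40 (limma adjusted p = 0.0476, 0.0486 and 0.0127). Gsdme was not called (limma adjusted p = 0.535). Of all genes 8.60% were called lower and 6.86% higher on the deposited scale, and 5.34% and 18.5% under library totals. Among genes with a mean of at least 500, 21.6% were called lower on the deposited scale. Over 20 other settings the log2 differences kept their sign, but the calls did not hold in each. They ran from -0.95 to -0.45 for Gsdmd, -1.26 to -0.67 for Mlkl and 0.79 to 1.42 for Ninj1.

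Markers of several cell types differed between the same libraries. Limma called all 12 epithelial markers lower on the deposited scale, with a median log2 difference of -1.35. Under library totals it called 11, and Tspan8 was lower at -0.62 without being called. The summed level of the 12 was 316336 to 381490 normalised reads in wild-type colon and 105794 to 133245 in colon of Elf4fl/fl-Villin-Cre mice. On the deposited scale Elf4fl/fl-Villin-Cre replicate 1 was the lowest library for this sum, for the smooth muscle sum and for every Chmp gene. In CPM it was the lowest in 8 of 10 Chmp genes. Of 10 monocyte and macrophage markers 9 were called higher (10 under library totals), with sums of 10826 to 12872 and 21851 to 33116. Of 10 neutrophil markers 9 were called higher on either scale, with a median of 3.27. The tenth, Ly6g, dominated the neutrophil sum (13884 to 14198 in wild-type colon, 16439 to 18485 in colon of Elf4fl/fl-Villin-Cre mice) and was not called. Unlike the other neutrophil markers Ly6g had a negative log2 difference, -0.40 on the deposited scale and -0.08 under library totals. Of 7 fibroblast markers 3 were called higher (6 under library totals), of 5 endothelial markers 1 (3) and of 10 T and B lymphocyte markers 1 (2). On the deposited scale the uncalled fibroblast, endothelial and lymphocyte markers also had positive differences, except Cd8a at -0.11. Of 7 smooth muscle markers 1 was called lower (not called under library totals), with sums of 101480 to 131288 and 60506 to 90494. The uncalled smooth muscle markers were also negative on the deposited scale, except Tagln at 0.14. Of 5 erythroid markers 4 were called higher (5 under library totals), with sums of 244 to 693 and 2419 to 2807. These counts stand beside 6.86% of all genes called higher and 8.60% lower on the deposited scale, and 18.5% and 5.34% under library totals. No marker was at 0 in any library. The part of these cell type differences in the lower Chmp values was not tested.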

How the data were processed

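The deposited table holds 1 normalised signal per gene and library, made by the authors. The build, per the submitters' processing notes, was mm10. Not given in the sources used here are the aligner, counter, annotation release, strand use and scaling tool. In every library 100% of values were whole steps (tolerance 0.01), so the authors' signal is a read count divided by 1 factor per library, and whole reads were recovered by division. Symbols and places came from GENCODE mouse release 21, which matched 22358 of 22422 identifiers with versions ignored. Groups came from the genotype labels.

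Limma 3.58.1 (R 4.3.3) was fitted to log2(value + 1) of all 4 libraries by genotype, with an intensity-dependent prior variance, and p-values were adjusted by Benjamini-Hochberg (threshold 0.05). Of the genes, 372 had a mean under 1 and were left out, and 22050 were tested with 2 residual and 4.06 prior degrees of freedom. Fold changes on this scale understate the change of low genes. Library totals replaced the authors' factors as the chief alternative. The edgeR (4.0.16, quasi-likelihood, TMM, 17337 genes, 1713 called higher and 2341 lower) and DESeq2 (1.42.0) tests on whole reads were added after seeing the data. The limma script was tested on simulated data.

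The Chmp genes, lists, markers and motifs were chosen with earlier results of these data known. Named are the 10 Chmp genes, Elf4, and from each list up to 4 genes past the threshold, or the 2 with the smallest p. Tsg101, Vps4a, Vps4b, Ist1, Lemd2, Ptpn23, Vps36, Vps37a, Vps37b, Vps37d, Mvb12b, Gsdme and Ly6g were named after their values were seen. So were Stam2, Vta1, Tspan8, Cd8a and Tagln. Protein sequences were not analysed here. Copies were sought with blastn among GENCODE transcripts. The counting error covers counting only.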

Additional observations from a re-analysis of the deposited data

How the results depend on the processing

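Over 20 other settings, 9 of the 10 Chmp genes kept a negative difference in each; Chmp7 turned to 0.14 under library totals in limma and in edgeR, and Snf8 to 0.0226 and 0.0251. Against 9 Chmp genes called lower, library totals gave 3 (edgeR with library totals also 3), quantile scaling 2 and no filter on low values 4. Against 8 other ESCRT genes lower and 0 higher, library totals gave 0 and 4, edgeR with library totals 0 and 5, quantile scaling 3 and 1, and no filter 5 lower. Over all genes, 1512 were called higher and 1897 lower; library totals gave 4069 and 1178, and edgeR with library totals 4717 higher. The edgeR and DESeq2 settings were chosen after seeing the data. Leaving out 1 library, with the lone library of a group assumed to vary like the other group, gave 0 calls in limma for each count, with 1 residual degree of freedom. In edgeR it gave 2 to 6 Chmp genes lower, 0 to 7 other ESCRT genes lower, 476 to 1563 genes higher (844 without Elf4fl/fl-Villin-Cre replicate 1) and 809 to 2191 lower. Same-numbered libraries share only a number (correlation of their deviations 0.104 over 22050 genes, 2 pairs). The fit with a replicate block called 9 Chmp genes and 11 other ESCRT genes lower, and 2066 genes higher and 2445 lower. The cause of these changes was not tested. Counting error of the Chmp values was at most 4.37%, and each group had 2 libraries.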
